A study of Mus musculus with 18 samples.

Results

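The 32 genes described here encode the carrier, enzymes and regulators that break down the branched-chain amino acids leucine, isoleucine and valine. They are a list of known pathway genes, not picked by the value of each, but chosen with earlier results of these data known. They are 32 of the 55487 genes counted. Each was matched by its symbol, and all 32 passed the filter on low counts in both tissues. They were ordered by step: 3 genes of entry into the pathway, 6 of the branched-chain ketoacid dehydrogenase complex (BCKDH) with its kinase and phosphatase, 5 of the leucine branch, 4 of the isoleucine branch, 8 of the valine branch and 6 of the propionate steps.

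Total RNA was sequenced from subcutaneous white adipose tissue (sWAT) of 4 Ctrl and 4 Csn8AKO mice at 12 weeks of age, and from brown adipose tissue (BAT) of 5 Ctrl and 5 Csn8AKO mice at 4 weeks of age. The comparison asks how adipose tissue differs when its adipocytes lack CSN8, a subunit of the COP9 signalosome, which removes the ubiquitin-like protein NEDD8 from cullins. Both genotypes carry floxed *Csn8* alleles (*Csn8* f/f), and only Csn8AKO mice carry Cre under the adiponectin promoter, which is active in white and brown adipocytes and removes exons 4 to 6 of *Csn8*, named *Cops8* in the files. Ctrl mice are *Csn8* f/f littermates, labelled WT. All mice were male, ate chow and were fasted for 4 h, and each library came from 1 mouse. Tissue and age cannot be told apart, since each tissue was taken at 1 age.

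In the first step of the pathway a transaminase moves the amino group of leucine, isoleucine or valine to 2-oxoglutarate, and in the second BCKDH irreversibly decarboxylates the resulting ketoacids in mitochondria. The kinase BCKDK inactivates the complex by phosphorylation and the phosphatase PPM1K reactivates it. The branches then part: leucine gives acetyl-CoA and acetoacetate, valine gives propionyl-CoA, and isoleucine gives both acetyl-CoA and propionyl-CoA, which the propionate enzymes turn into succinyl-CoA. Differentiated adipocytes are known for strong use of these amino acids, and brown adipocytes for burning them during thermogenesis.

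Between 15835721 and 66719937 reads were counted per library. In sWAT, 1.80% to 19.8% of these reads in Ctrl mice and 3.96% to 47.8% in Csn8AKO mice fell on genes of ribosomal RNA. The targeted gene *Cops8* was 35.0 ± 0.911 CPM (SD, n = 4) in Ctrl and 32.2 ± 2.99 CPM (SD, n = 4) in Csn8AKO sWAT (log2 fold change -0.12, edgeR adjusted p = 0.623), and 39.4 ± 3.22 against 32.1 ± 3.56 CPM (SD, n = 5 each) in BAT (log2 fold change -0.30, edgeR adjusted p = 0.0211). These counts cover the whole gene, so a transcript without the deleted exons is still counted. CPM here are read counts scaled by library size and by trimmed mean of M values (TMM) factors. The adipocyte marker *Adipoq* stood at 1411 ± 187 CPM in Ctrl sWAT (SD, n = 4) and at 644 ± 16.3 CPM in Ctrl BAT (SD, n = 5), and the brown adipocyte marker *Ucp1* at 2780 ± 1134 CPM in Ctrl BAT (SD, n = 5). *Ucp1* did not pass the filter in sWAT.

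Some libraries stood apart. In sWAT, T and B cell markers summed to 365 CPM in Ctrl replicate 1 and 682 CPM in Csn8AKO replicate 2, against 9.82 to 36.9 CPM in the other libraries, and skeletal muscle markers reached 3665 CPM in Ctrl replicate 3 and 2191 CPM in Csn8AKO replicate 4. In BAT, muscle markers reached 178 and 294 CPM in Csn8AKO replicates 1 and 5, against at most 59.3 CPM in the other libraries. Csn8AKO replicate 2 of BAT stood near the Ctrl libraries for mitochondrial genes: its citric acid cycle genes summed to 25442 CPM, within the 23066 to 26649 CPM of Ctrl mice, whereas the other 4 Csn8AKO libraries summed to 15977 to 16542 CPM. The counts below were also taken without these libraries.

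More of the breakdown genes were lower than higher in both tissues of Csn8AKO mice. In sWAT, 12 of the 32 genes were called lower and 1 higher at an adjusted p under 0.05 by edgeR's quasi-likelihood test, where 3.0% of the 18843 genes tested were lower and 2.3% higher. In BAT, 23 were lower and 2 higher, where 15.8% of the 22345 genes tested were lower and 16.0% higher. The median log2 fold change of the 32 genes was -0.73 in sWAT and -0.52 in BAT, against 0.032 and 0.0063 over all genes tested. The log2 fold change was below 0 for 30 of the 32 genes in sWAT and for 29 in BAT, against 46.7% and 49.5% of all genes. Each Csn8AKO library lay below each Ctrl library for 19 of the genes in sWAT (8.23% of all genes) and for 13 in BAT (10.9%). Each lay above for 1 gene in BAT, *Abat* (10.1%). Lower in both tissues were 11 genes, namely *Bcat2*, *Bckdk*, *Ivd*, *Mccc1*, *Mccc2*, *Acaa2*, *Hibch*, *Aldh6a1*, *Aldh2*, *Mut* and *Mmaa*. Not called in either tissue were *Slc25a44*, *Bckdha*, *Dld*, *Acat1*, *Pcca* and *Mcee*.

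The sWAT count depended on single libraries. Leaving out Ctrl replicate 2, 3 or 4 left 4, 3 and 3 genes lower, and leaving out Csn8AKO replicate 1 or 3 left 7 and 2. The number lower over all genes tested fell in the same fits, from 566 to 229, 209, 191, 266 and 179. Without both libraries highest in T and B cell markers 19 genes were lower (827 of all genes). Without both highest in muscle markers only 2 were (231 of all genes). *Ivd* and *Mccc1* were the 2 genes called lower in each of the 8 fits with 1 sWAT library left out. In BAT, 17 of the 23 lower genes were called in each of the 10 such fits, and *Bckdhb*, *Bckdk*, *Mccc1*, *Mccc2*, *Acad8* and *Echs1* were not. Without Csn8AKO replicate 2 of BAT, 28 genes were lower, the same 23 and also *Bckdha*, *Dld*, *Acat1*, *Pcca* and *Mcee*. Without the BAT libraries highest in muscle markers 14 were lower. Over all genes tested in BAT, 3536 were lower with all libraries, 4106 without Csn8AKO replicate 2 and 2743 without the libraries highest in muscle markers.

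**Figure D1:**
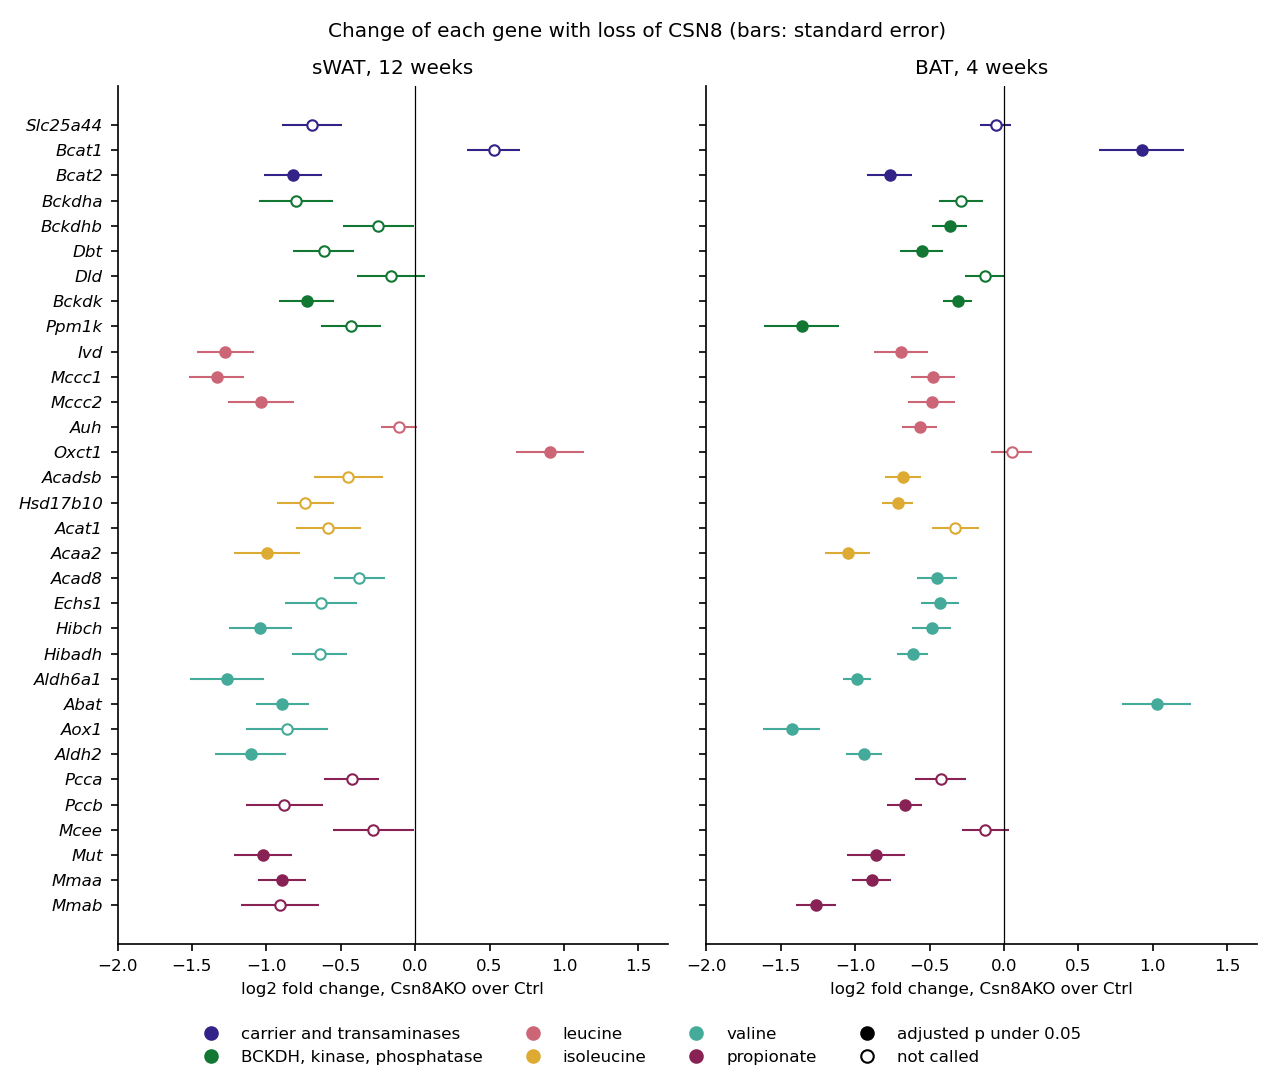
Log2 fold change of each of the 32 genes in Csn8AKO over Ctrl mice (horizontal axis) in sWAT (left, n = 4 and 4) and BAT (right, n = 5 and 5), in the order of the pathway. Bars are standard errors derived from the test statistic, and filled points have an edgeR adjusted p under 0.05. Most points lie left of 0, while Bcat1 and Oxct1 lie right of it in both tissues and Abat in BAT.

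Some markers of adipocytes and of other cells also moved. Over all genes tested, 3.0% were lower and 2.3% higher in sWAT, and 15.8% and 16.0% in BAT. The summed level of 14 adipocyte markers was 18679 to 27878 CPM in Ctrl and 7533 to 17807 CPM in Csn8AKO sWAT. There 4 of the 14 were called lower (median log2 fold change -0.97). In BAT the sum was 22926 to 29554 against 19542 to 25025 CPM, and 5 were called lower and 1 higher (median -0.11). The median of the 32 breakdown genes was -0.73 in sWAT and -0.52 in BAT. Brown adipocyte markers summed to 4388 to 7560 CPM in Ctrl and 4490 to 9108 CPM in Csn8AKO BAT. There, near the shares over all genes, 2 of the 10 were lower and 1 higher (median log2 fold change 0.24). In sWAT they summed to 151 to 246 CPM and 46.2 to 110 CPM, and 3 of the 8 tested were lower, among them *Cidea*, named after its values were seen, at 42.7 ± 25.5 and 0.235 ± 0.061 CPM (SD, n = 4 each). Of 15 macrophage markers, 12 were higher in sWAT (sum 999 to 1271 CPM in Ctrl, 2124 to 3221 CPM in Csn8AKO) and 14 in BAT (84.5 to 125 CPM and 436 to 684 CPM). Of 8 markers of fibroblasts and progenitors, 1 was higher in sWAT (sum 6373 to 7868 CPM in Ctrl, 6850 to 12602 CPM in Csn8AKO) and 8 in BAT (754 to 1230 CPM and 1740 to 3407 CPM). Their part in the lower levels of the breakdown genes was not tested. In bulk tissue, fewer adipocytes and less RNA of a gene per adipocyte cannot be told apart.

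**Figure D2:**
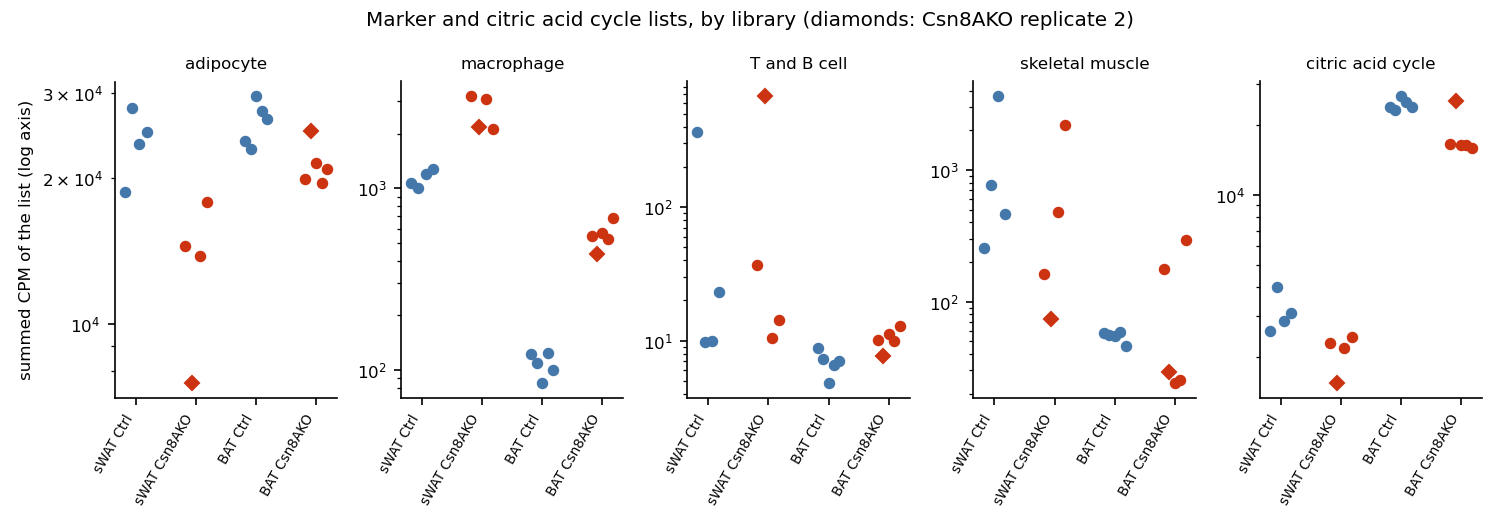
Summed CPM (vertical log axes) of 4 marker lists and of 16 citric acid cycle genes in each of the 18 libraries, by tissue and genotype, with Csn8AKO replicate 2 of each tissue as a diamond. Macrophage markers are higher in each Csn8AKO library than in each Ctrl library of the same tissue, and the BAT diamond lies with the Ctrl libraries for citric acid cycle genes.

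In Ctrl mice most of these genes were more abundant in BAT than in sWAT. Levels were taken per kilobase of gene length, with all 18 libraries scaled together. Of the 32 genes, 23 were higher in each BAT library than in each sWAT library of Ctrl mice. Another 2 were lower and 7 overlapped, and the median ratio of BAT over sWAT for the 32 genes was 2.33. The matching share and ratio over all genes were not computed. Whether these genes differ more between the tissues than other genes do was therefore not tested, and the tissues also differ in age. *Acaa2*, a thiolase that also serves fatty acid oxidation, was the most abundant in BAT, at 1156 CPM per kilobase against 68.6 in sWAT. In sWAT the most abundant was *Aldh2*, a mitochondrial aldehyde dehydrogenase of broad use, at 142 CPM per kilobase, and its range overlapped that of BAT. The lowest in both tissues were *Abat*, the transaminase of 4-aminobutyrate that also acts on a valine intermediate, and *Bcat1*, the cytosolic transaminase. These same genes were the 2 that were lower in BAT than in sWAT, at 0.246 against 2.00 CPM per kilobase for *Abat* and 0.215 against 1.12 for *Bcat1*.

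**Figure D3:**
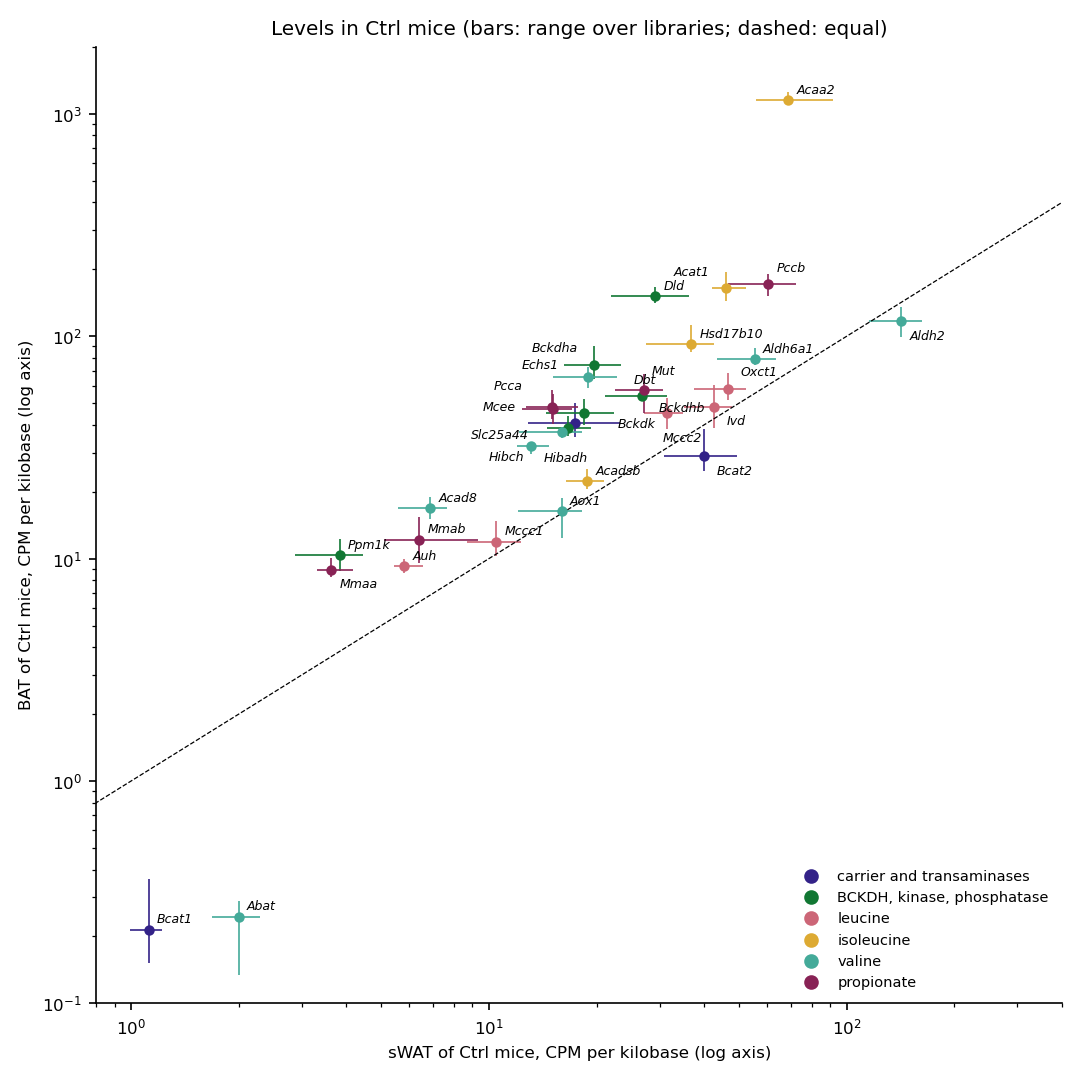
Mean level of each gene in Ctrl BAT (vertical log axis, n = 5) against Ctrl sWAT (horizontal log axis, n = 4) in CPM per kilobase, with bars for the range over libraries and a dashed line where both are equal. Most genes lie above the line, Acaa2 farthest, and Abat and Bcat1 lie below it.

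Of the transaminases of the first step, the mitochondrial one was lower in both tissues and the cytosolic one was higher in BAT. *Bcat2*, the mitochondrial enzyme and the main form in adipocytes, stood at 128, 138, 179 and 197 CPM in the 4 Ctrl sWAT libraries and at 99.1, 66.5, 89.4 and 108 CPM in the 4 Csn8AKO libraries. The groups did not overlap, and *Bcat2* was lower (log2 fold change -0.82, SE 0.19, edgeR adjusted p = 0.0369). In BAT it stood at 96.4, 93.7, 112, 145 and 97.1 CPM in Ctrl and 56.6, 75.2, 57.8, 49.9 and 79.8 CPM in Csn8AKO mice. Again no library overlapped, and the change was of like size (log2 fold change -0.77, SE 0.15, edgeR adjusted p = 0.00172).

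*Bcat1*, the cytosolic enzyme, stood at 2.04, 3.25, 1.56, 1.42 and 1.37 CPM in Ctrl BAT and at 4.59, 2.13, 2.51, 3.87 and 5.11 CPM in Csn8AKO BAT. Ctrl replicate 2 overlapped with Csn8AKO replicates 2 and 3, and *Bcat1* was higher (log2 fold change 0.92, SE 0.29, edgeR adjusted p = 0.0252), in 4 of the 10 fits with 1 library left out. In sWAT it stood at 11.6, 10.3, 9.59 and 11.6 CPM in Ctrl and 16.4, 17.6, 17.2 and 11.1 CPM in Csn8AKO mice, a change that did not pass the test (log2 fold change 0.53, SE 0.18, edgeR adjusted p = 0.123). The level per length of *Bcat1* relative to *Bcat2* was 0.0225 to 0.0381 in Ctrl and 0.0432 to 0.111 in Csn8AKO sWAT, and 0.00411 to 0.0145 in Ctrl and 0.0118 to 0.0339 in Csn8AKO BAT. In both tissues and genotypes *Bcat2* therefore remained the more abundant of the pair. The macrophage markers given above rose in both tissues as well, and whether *Bcat1* came from adipocytes was not tested.

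*Slc25a44*, which carries branched-chain amino acids into mitochondria, stood at 49.0, 84.0, 53.2 and 69.9 CPM in Ctrl and 33.0, 33.3, 44.7 and 47.6 CPM in Csn8AKO sWAT. The groups did not overlap, but the difference was not called (log2 fold change -0.69, SE 0.20, edgeR adjusted p = 0.0792). In BAT it stood at 125, 144, 173, 122 and 142 CPM in Ctrl and 122, 154, 144, 136 and 124 CPM in Csn8AKO mice, and the groups overlapped throughout (log2 fold change -0.057, SE 0.10, edgeR adjusted p = 0.722).

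Of the BCKDH subunits, none was called in sWAT and 2 were lower in BAT. *Bckdha* and *Bckdhb* encode the alpha and beta subunits of its decarboxylase, *Dbt* the transacylase core and *Dld* the dehydrogenase that is shared with other complexes. In sWAT, *Bckdha* stood at 32.9, 44.9, 38.6 and 38.1 CPM in Ctrl and 21.9, 11.7, 27.6 and 27.6 CPM in Csn8AKO mice, and *Dbt* at 51.5, 59.3, 66.7 and 76.7 CPM against 48.8, 26.7, 41.0 and 49.7 CPM. For both genes the groups did not overlap, yet neither was called (log2 fold changes -0.80 and -0.61, edgeR adjusted p = 0.095 and 0.12). *Bckdhb* stood at 40.5, 49.0, 51.6 and 58.3 CPM in Ctrl and 55.2, 23.7, 39.8 and 49.5 CPM in Csn8AKO mice, and *Dld* at 86.1, 135, 108 and 112 CPM against 140, 63.9, 89.8 and 101 CPM. Both overlapped (log2 fold changes -0.25 and -0.16, edgeR adjusted p = 0.624 and 0.747), and Csn8AKO replicate 2 was the lowest library for all of the 4 subunits.

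In BAT the subunits were split by 1 library. *Bckdhb* stood at 96.4, 90.4, 94.8, 100 and 89.1 CPM in Ctrl and 69.4, 101, 62.4, 60.9 and 72.3 CPM in Csn8AKO mice, and *Dbt* at 128, 130, 169, 168 and 133 CPM against 85.5, 142, 87.1, 87.9 and 93.4 CPM. Both were lower (log2 fold changes -0.37 and -0.55, edgeR adjusted p = 0.0306 and 0.0104), with replicate 2 as the only Csn8AKO library that was not below all Ctrl values. The call of *Bckdhb* held in 3 of the 10 fits with 1 library left out and that of *Dbt* in all 10, and both were lost without the libraries highest in muscle markers. *Bckdha* stood at 122, 118, 166, 148 and 131 CPM in Ctrl and 106, 163, 97.4, 97.9 and 96.1 CPM in Csn8AKO mice, and *Dld* at 586, 536, 568, 510 and 505 CPM against 450, 702, 469, 458 and 399 CPM. These were not called (log2 fold changes -0.29 and -0.13, edgeR adjusted p = 0.165 and 0.523), and both were called lower without replicate 2.

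The kinase of the complex was lower in both tissues and its phosphatase in BAT. *Bckdk*, the kinase, stood at 57.3, 72.0, 63.1 and 61.6 CPM in Ctrl and 39.5, 25, 42.2 and 46.7 CPM in Csn8AKO sWAT, and was lower (log2 fold change -0.73, SE 0.18, edgeR adjusted p = 0.0486). In BAT it stood at 139, 127, 157, 129 and 138 CPM in Ctrl and 107, 137, 102, 98.6 and 112 CPM in Csn8AKO mice (log2 fold change -0.31, SE 0.10, edgeR adjusted p = 0.0257), where replicate 2 again lay among the Ctrl values. Its call held in 2 of the 8 fits with 1 library left out in sWAT and in 5 of the 10 in BAT.

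*Ppm1k*, the phosphatase, had the largest change of this step in BAT. There it stood at 59.2, 61.0, 58.2, 71.4 and 51.1 CPM in Ctrl and at 27.0, 40.2, 15.1, 17.6 and 17.6 CPM in Csn8AKO mice, with no overlap, and it was lower in all 10 fits with 1 library left out (log2 fold change -1.36, SE 0.25, edgeR adjusted p = 0.00213). In sWAT it stood at 25.6, 17.5, 24.9 and 27.5 CPM in Ctrl and 21.6, 20.5, 13.9 and 14.6 CPM in Csn8AKO mice, which overlapped and were not called (log2 fold change -0.43, SE 0.20, edgeR adjusted p = 0.258). The level per length of *Ppm1k* relative to *Bckdk* was 0.227 to 0.340 in Ctrl and 0.0905 to 0.180 in Csn8AKO BAT, without overlap, and 0.149 to 0.274 against 0.192 to 0.504 in sWAT. The change of *Ppm1k* did not differ between the tissues at this threshold (log2 difference -0.94, SE 0.33, edgeR adjusted p = 0.167), but did without Csn8AKO replicate 2 of BAT (-1.23, edgeR adjusted p = 0.0102).

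**Figure D4:**
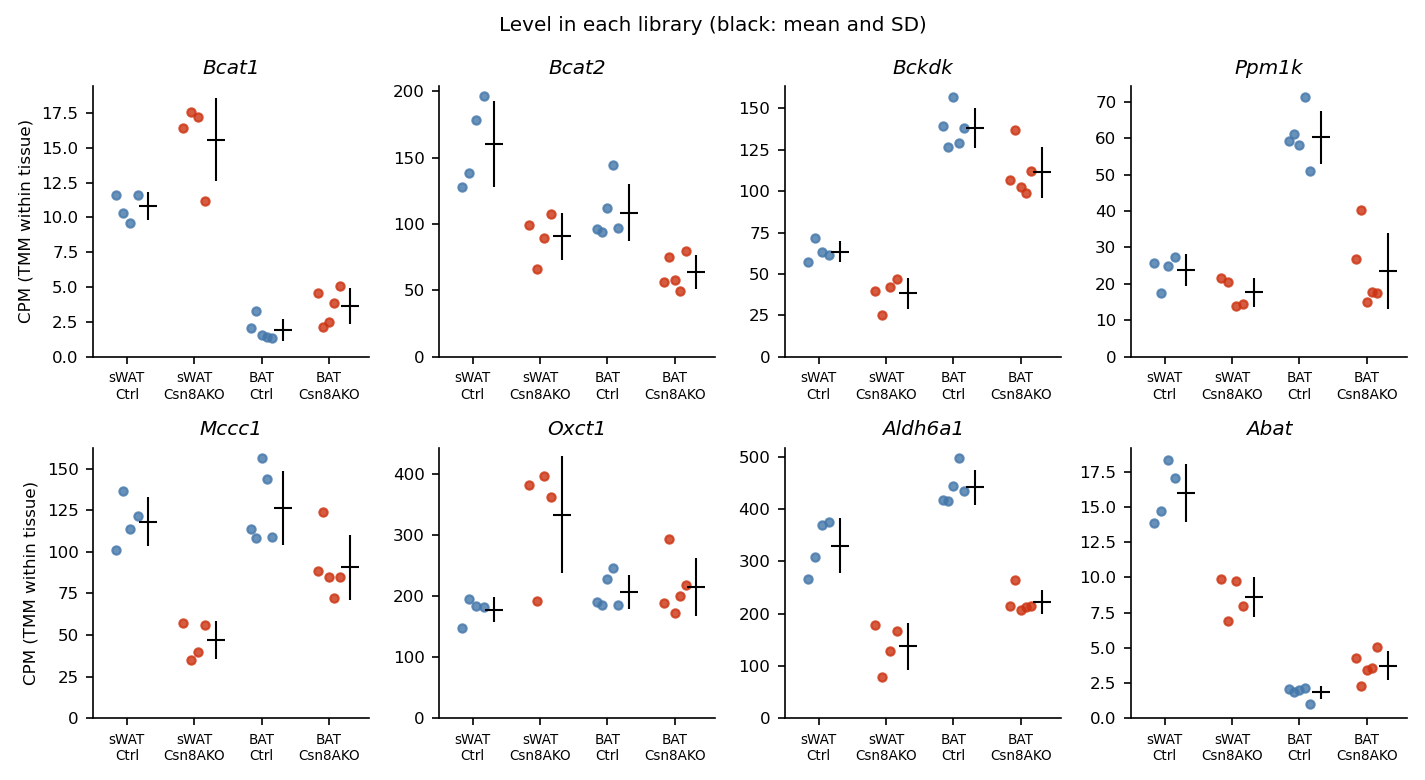
CPM (vertical axes, from 0) of 8 genes in each of the 18 libraries, with the mean and SD of each group in black. Values were scaled within each tissue, so only genotypes of the same tissue are compared. Bcat2, Bckdk, Mccc1 and Aldh6a1 are lower in Csn8AKO mice of both tissues, Oxct1 is higher in 3 of the 4 Csn8AKO sWAT libraries, and Abat is lower in Csn8AKO sWAT and higher in Csn8AKO BAT.

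The leucine branch held the largest decreases in sWAT. *Mccc1*, the biotin-bearing subunit of methylcrotonyl-CoA carboxylase, stood at 101, 137, 114 and 121 CPM in Ctrl and 57.4, 34.8, 39.9 and 55.8 CPM in Csn8AKO sWAT, without overlap (log2 fold change -1.33, SE 0.19, edgeR adjusted p = 0.00479). Its partner subunit *Mccc2* and *Ivd*, which encodes isovaleryl-CoA dehydrogenase, were lower as well (log2 fold changes -1.04 and -1.28, edgeR adjusted p = 0.0267 and 0.00641). *Auh*, the hydratase of the next reaction, was not (log2 fold change -0.11, SE 0.12, edgeR adjusted p = 0.672).

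In BAT, *Ivd* was the gene of this branch with the largest decrease, at 227, 205, 311, 321 and 221 CPM in Ctrl and 152, 234, 123, 136 and 148 CPM in Csn8AKO mice (log2 fold change -0.69, SE 0.18, edgeR adjusted p = 0.0109). *Mccc1*, *Mccc2* and *Auh* were lower by 0.48 to 0.57 on the log2 scale, and for *Auh* the groups did not overlap. With 1 library left out, the call held in 5 of 10 fits for *Mccc1*, in 4 for *Mccc2* and in all 10 for *Auh*. Of the 5 genes of this branch, 3 were lower and 1 was higher in sWAT, and 4 were lower in BAT.

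*Oxct1*, which activates acetoacetate for oxidation and thus belongs to ketone use as well as to leucine, was the only one of the 32 genes called higher in sWAT. It stood at 148, 195, 184 and 183 CPM in Ctrl and 382, 191, 397 and 362 CPM in Csn8AKO mice, so that 3 Csn8AKO libraries lay above all Ctrl libraries and replicate 2 lay among them (log2 fold change 0.91, SE 0.23, edgeR adjusted p = 0.0475). The call held in 1 of the 8 fits with 1 library left out, the one without replicate 2. It was lost with RLE factors, with library size alone and without the libraries highest in muscle markers. In BAT, *Oxct1* stood at 190, 186, 228, 246 and 186 CPM in Ctrl and 189, 294, 172, 200 and 218 CPM in Csn8AKO mice and was not called (log2 fold change 0.051, edgeR adjusted p = 0.815).

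Of the isoleucine branch, 1 gene was lower in sWAT and 3 in BAT. *Acaa2* had the largest decrease of this branch in both tissues, at 90.2, 140, 90.6 and 107 CPM in Ctrl and 66.3, 33.9, 56.9 and 57.8 CPM in Csn8AKO sWAT (log2 fold change -1.0, SE 0.22, edgeR adjusted p = 0.0318). In BAT it stood at 1672, 1633, 1691, 1841 and 1622 CPM in Ctrl and 883, 1170, 688, 692 and 652 CPM in Csn8AKO mice (log2 fold change -1.05, SE 0.15, edgeR adjusted p = 1.49e-04). No library overlapped in either tissue, and replicate 2 was again the highest Csn8AKO library of BAT. *Acadsb*, the dehydrogenase of the isoleucine branch, and *Hsd17b10*, the hydroxyacyl-CoA dehydrogenase, were lower in BAT (log2 fold changes -0.68 and -0.71, edgeR adjusted p = 8.72e-04 and 1.53e-04). In sWAT their log2 fold changes of -0.45 and -0.74 did not pass the test (edgeR adjusted p = 0.319 and 0.0534). *Acat1*, the thiolase that ends the branch and also acts on ketone bodies, was called in neither tissue (log2 fold changes -0.58 and -0.33).

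The valine branch had 4 of its 8 genes lower in sWAT, and 7 lower and 1 higher in BAT. *Aldh6a1*, the methylmalonate semialdehyde dehydrogenase that ends the branch, had the largest decrease in sWAT, at 267, 308, 370 and 375 CPM in Ctrl and 178, 78.6, 128 and 166 CPM in Csn8AKO mice (log2 fold change -1.26, SE 0.25, edgeR adjusted p = 0.0198). In BAT it had the smallest adjusted p of the 32 genes (log2 fold change -0.99, SE 0.09, edgeR adjusted p = 4.96e-06), and the groups overlapped in neither tissue. *Hibch*, the hydrolase that frees 3-hydroxyisobutyrate from CoA, was lower in both tissues (log2 fold changes -1.04 and -0.49, edgeR adjusted p = 0.0218 and 0.0107). *Hibadh*, which oxidises that product, was lower in BAT (log2 fold change -0.61, edgeR adjusted p = 4.97e-04) and not called in sWAT (-0.64, edgeR adjusted p = 0.0753). *Acad8*, the isobutyryl-CoA dehydrogenase, and *Echs1*, the short-chain hydratase, were lower in BAT (log2 fold changes -0.45 and -0.43), and not called in sWAT (-0.38 and -0.63).

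The largest decrease of the 32 genes in BAT was that of *Aox1*. This gene, an aldehyde oxidase that is listed with this branch but has many substrates, stood at 153, 104, 158, 145 and 128 CPM in Ctrl and 68.9, 65.4, 33.9, 43.0 and 44 CPM in Csn8AKO BAT, without overlap (log2 fold change -1.43, SE 0.19, edgeR adjusted p = 2.08e-04). In sWAT its log2 fold change of -0.86 did not pass the test (edgeR adjusted p = 0.109). *Aldh2* was lower in both tissues (log2 fold changes -1.11 and -0.94, edgeR adjusted p = 0.028 and 5.61e-05).

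*Abat* was the only one of the 32 genes called in opposite directions. In sWAT it stood at 13.8, 14.7, 18.4 and 17.0 CPM in Ctrl and 9.86, 6.88, 9.72 and 8.00 CPM in Csn8AKO mice, and was lower (log2 fold change -0.89, SE 0.18, edgeR adjusted p = 0.02). In BAT it stood at 2.09, 1.90, 2.03, 2.16 and 1.01 CPM in Ctrl and 4.28, 2.33, 3.4, 3.54 and 5.08 CPM in Csn8AKO mice, and was higher (log2 fold change 1.02, SE 0.24, edgeR adjusted p = 0.00432). The groups overlapped in neither tissue, and each BAT library held at least 56 of its reads. The change in BAT differed from that in sWAT by 1.90 on the log2 scale (SE 0.32, edgeR adjusted p = 0.00298), and in all 18 fits with 1 library left out that adjusted p was at most 0.00923. Of the 32 genes, *Abat* was the only one called by this interaction test, where 2.36% of the 22509 genes tested were called in either direction. Macrophage and fibroblast markers rose in BAT beside it, and their part in the higher level of *Abat* was not tested.

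The propionate steps had the lowest median in BAT. *Mmab*, which makes the adenosylcobalamin used by methylmalonyl-CoA mutase, stood at 48.7, 39.7, 54.3, 34.1 and 38.9 CPM in Ctrl and 21.4, 17.1, 20.2, 14.8 and 16.4 CPM in Csn8AKO BAT, without overlap and with replicate 2 among the other Csn8AKO libraries (log2 fold change -1.26, SE 0.14, edgeR adjusted p = 1.47e-05). In sWAT its log2 fold change of -0.91 was not called (edgeR adjusted p = 0.0792). *Mut*, the mutase itself, stood at 91.0, 118, 110 and 104 CPM in Ctrl and 67.8, 34.6, 55.9 and 49.6 CPM in Csn8AKO sWAT, without overlap (log2 fold change -1.02, SE 0.19, edgeR adjusted p = 0.0169), and was lower in BAT too (log2 fold change -0.86, edgeR adjusted p = 0.00523). *Mmaa*, which protects and loads the mutase, was lower by about the same amount in both (log2 fold changes -0.90 and -0.89, edgeR adjusted p = 0.0129 and 2.00e-04).

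Of propionyl-CoA carboxylase, *Pccb*, its beta subunit, was lower in BAT (log2 fold change -0.67, edgeR adjusted p = 8.04e-04) and not called in sWAT (-0.88, edgeR adjusted p = 0.0832). *Pcca*, the biotin-bearing alpha subunit, was called in neither tissue (log2 fold changes -0.43 and -0.43, edgeR adjusted p = 0.227 and 0.0713). *Mcee*, the epimerase between carboxylase and mutase, was the least changed gene of these steps (log2 fold changes -0.28 and -0.13, edgeR adjusted p = 0.626 and 0.598).

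The branch with the lowest median was leucine in sWAT and the propionate steps in BAT. In sWAT the median log2 fold change was -1.04 for the leucine branch, -0.89 for propionate, -0.88 for valine, -0.69 for entry, -0.66 for isoleucine and -0.52 for BCKDH. In BAT it was -0.76 for propionate, -0.70 for isoleucine, -0.55 for valine, -0.49 for leucine, -0.34 for BCKDH and -0.057 for entry. The leucine branch had the lowest median in sWAT under all 20 settings tried and propionate in BAT under all 21. All settings ranked the steps by a median over genes, so they do not test whether another summary gives the same order. With the mean over genes, valine was lowest in each Csn8AKO library of sWAT, and isoleucine and propionate were nearly level in BAT. The steps hold 3 to 8 genes each, and neighbouring medians differ by less than the range within a step. The medians are a description, without a test of 1 branch against another. Leaving out the 8 genes that serve several steps or pathways left leucine lowest in sWAT (-1.16) and propionate lowest in BAT (-0.76).

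Levels of the 32 genes per library were also lower in Csn8AKO mice, with 2 libraries apart, but the order of the branches depended on the summary. When the log2 differences from the Ctrl means were averaged over the genes of a step, the median Csn8AKO library of sWAT lay at -0.72 for valine. It lay at -0.63 for isoleucine, -0.63 for propionate and -0.48 for leucine. In BAT it lay at -0.840 for isoleucine and -0.835 for propionate. The mean log2 difference of the 32 genes from their Ctrl means was -0.42 to -1.20 in the sWAT of Csn8AKO mice and -0.20 to 0.12 in that of Ctrl mice. The lowest of these, replicate 2, was the lowest Csn8AKO library for 29 of the 32 genes, and is the library with the most T and B cell marker RNA and the least adipocyte marker RNA. In BAT the mean was -0.53 to -0.71 in 4 Csn8AKO libraries and -0.14 in replicate 2, against -0.14 to 0.15 in Ctrl mice. Replicate 2 was the highest Csn8AKO library for 27 of the 32 genes, and without it the medians were -0.92 for propionate, -0.80 for isoleucine, -0.68 for valine, -0.66 for leucine, -0.49 for BCKDH and -0.11 for entry.

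**Figure D5:**
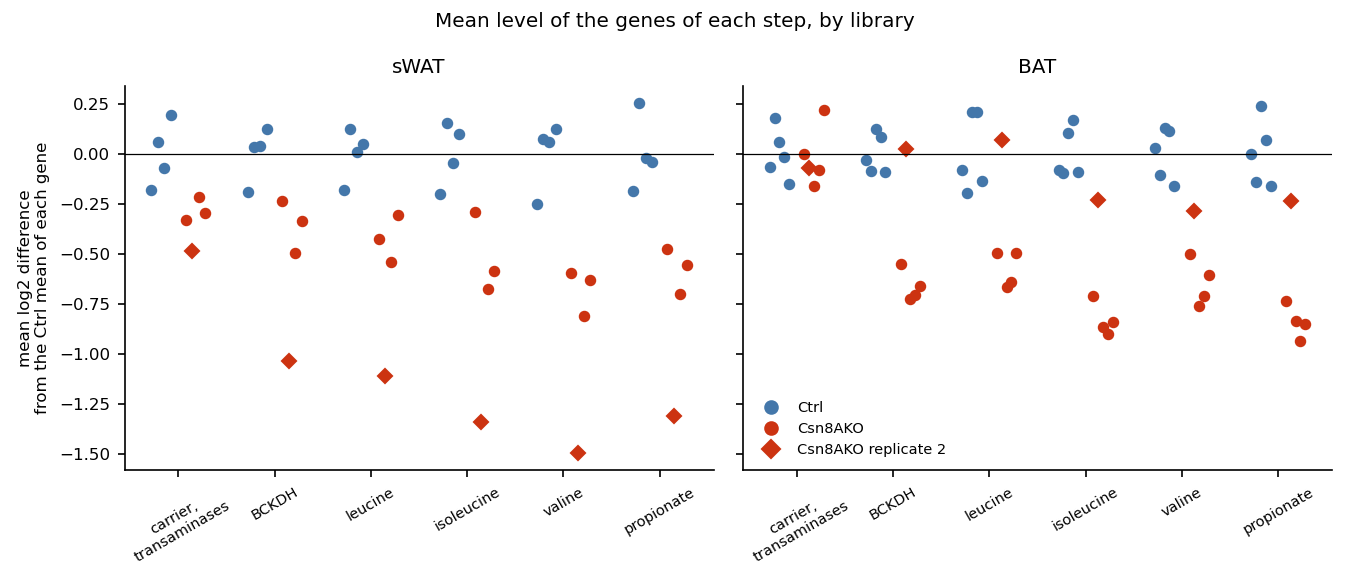
Mean log2 difference of the genes of each step from their Ctrl means (vertical axis) in each sWAT (left) and BAT (right) library, Ctrl in blue and Csn8AKO in red. The diamonds mark Csn8AKO replicate 2, the lowest library for each step in sWAT, and in BAT the highest Csn8AKO library of each step but entry.

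The proximal promoters were searched for short motifs, since 11 of the genes were lower in both tissues. RefSeq (GRCm38.p6) held the sequence from 250 bases before to 50 bases after the start site for 25 of the 32 genes. None of the 25 held TCAAGGTCA (estrogen-related receptors), GCGCA followed by its reverse complement (NRF1), or AGGTCA repeated after 1 base (PPAR) on either strand, which 0.423%, 0.971% and 0.0396% of all 32851 promoters and 0.343%, 1.96% and 0.0546% of those of 12830 tested genes held. At shares this low, finding none among 25 says only that these letters are not in these windows. The GC box GGGGCGGGG was in 10 of the 25, against 11.4% of all promoters and 22.0% of those of tested genes. CCAAT was in 16 of the 25, against 37.4% and 41.8%. These are matches of letters only. Of the 11 genes lower in both tissues 8 had a promoter sequence, and 3 of these held a GC box. The other 7 genes with a GC box were not lower in both, and *Mcee* and *Pcca* among them were called in neither tissue. The 3 promoters are printed from 5′ to 3′ on the strand of the gene, with GC boxes in capitals on either strand.
*Hibch*: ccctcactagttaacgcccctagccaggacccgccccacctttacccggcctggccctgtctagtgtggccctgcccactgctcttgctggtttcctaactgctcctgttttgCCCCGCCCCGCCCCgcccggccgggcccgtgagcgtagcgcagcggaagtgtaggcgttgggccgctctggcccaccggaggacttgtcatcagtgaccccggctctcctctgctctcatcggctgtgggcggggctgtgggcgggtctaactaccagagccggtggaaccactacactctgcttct
*Mccc1*: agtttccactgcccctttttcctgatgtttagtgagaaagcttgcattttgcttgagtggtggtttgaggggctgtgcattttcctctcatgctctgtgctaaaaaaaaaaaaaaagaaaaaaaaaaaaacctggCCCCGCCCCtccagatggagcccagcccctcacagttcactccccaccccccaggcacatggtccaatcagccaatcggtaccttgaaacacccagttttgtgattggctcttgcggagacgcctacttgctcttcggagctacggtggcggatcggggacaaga
*Mmaa*: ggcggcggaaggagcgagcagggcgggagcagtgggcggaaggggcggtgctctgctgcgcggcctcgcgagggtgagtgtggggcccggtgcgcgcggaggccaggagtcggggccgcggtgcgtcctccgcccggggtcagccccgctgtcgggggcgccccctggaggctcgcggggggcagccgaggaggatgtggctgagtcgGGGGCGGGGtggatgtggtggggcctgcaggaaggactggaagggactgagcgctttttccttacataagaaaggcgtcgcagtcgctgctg
They lie at chr1:52844788-52845087 on the plus strand for *Hibch*, at chr3:36000629-36000928 on the minus strand for *Mccc1* and at chr8:79294687-79294986 on the minus strand for *Mmaa*. Counted from the RefSeq start site, the boxes begin at -137 and -132 in *Hibch*, where they overlap, at -115 in *Mccc1* and at -42 in *Mmaa*. The counted gene starts upstream of that site for 2 of them, at base 52844929 for *Hibch* and at base 79294937 for *Mmaa*. The *Mmaa* box therefore lies within the counted gene. *Mccc1* and *Mmaa* were called lower in sWAT in 8 and 7 of the 8 fits with 1 library left out, and *Hibch* in 4.

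Genes of neighbouring pathways were called lower as well. The counts of these lists stand beside shares over all genes of 3.0% lower and 2.3% higher in sWAT. In BAT these shares were 15.8% and 16.0%, and 1 or 2 calls in a short list can lie near them. Of other enzymes that end the breakdown of amino acids and ketones, 5 of the 19 tested were lower in sWAT (median log2 fold change -0.57) and 10 of the 21 in BAT (-0.41), where 2 were higher. Named by smallest adjusted p were *Aacs*, the acetoacetyl-CoA synthetase (log2 fold change -1.63, edgeR adjusted p = 0.00269), and *Acsf3*, the malonyl-CoA synthetase (-1.12, edgeR adjusted p = 0.00903), in sWAT, and *Aldh9a1*, an aldehyde dehydrogenase (-0.69, edgeR adjusted p = 7.61e-05), in BAT. Of fatty acid oxidation genes, some of which are also in the preceding list, 5 of 16 were lower in sWAT (median -0.67), led by *Hadhb* (-0.86) and *Slc25a20* (-0.70), and 10 of 17 in BAT (-0.44), led by *Etfb* (-0.68) and *Eci2* (-0.56).

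Of 16 citric acid cycle genes, 3 were lower in sWAT (median -0.54) and 10 in BAT (-0.44). *Suclg2*, a subunit of the ligase that uses succinyl-CoA, the product of the propionate steps, led in both tissues (log2 fold changes -0.73 and -0.79, edgeR adjusted p = 0.0212 and 1.56e-05), followed by *Sdha* in sWAT (-0.84) and *Sdhc* in BAT (-0.54). Of 12 genes of the related pyruvate and oxoglutarate dehydrogenase complexes, 1 was lower in sWAT, the phosphatase *Pdp2* (-1.04, edgeR adjusted p = 0.00427). In BAT 5 were lower and 1 higher, with the kinases *Pdk2* (-0.91) and *Pdk1* (-1.09) of smallest adjusted p.

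Of 5 tested genes of amino acid uptake at the plasma membrane, none was lower in either tissue at this threshold, while 1 was higher in sWAT, *Slc43a2* (log2 fold change 0.56, edgeR adjusted p = 0.0321), and 3 in BAT. *Slc7a5*, the light chain of the large neutral amino acid transporter, was 0.689 ± 0.121 CPM in Ctrl and 3.03 ± 1.26 CPM in Csn8AKO BAT (SD, n = 5 each, log2 fold change 2.15, edgeR adjusted p = 1.17e-04), and its heavy chain *Slc3a2* was 66.6 ± 23.7 and 173 ± 36.9 CPM (log2 fold change 1.37, edgeR adjusted p = 0.00164). These transporters are also found in activated immune cells, whose markers rose in the same libraries, and that part was not tested. Of 9 genes for biotin and cobalamin, the vitamins of the carboxylases and the mutase, 1 was lower in sWAT, the biotin carrier *Slc5a6* (log2 fold change -1.34, edgeR adjusted p = 0.0122). In BAT 4 were lower and 1 was higher, led by *Tcn2*, a cobalamin carrier of plasma (0.58, edgeR adjusted p = 3.49e-04), and *Mmadhc*, a cobalamin trafficking protein (-0.48, edgeR adjusted p = 0.00115).

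The amino group moved by the transaminases passes through glutamate. Of 6 genes that take it onward, none was called in sWAT, and in BAT 2 were lower and 3 higher. *Gpt*, the cytosolic alanine transaminase, had a log2 fold change of -1.28 (edgeR adjusted p = 6.92e-07) and *Got1*, the cytosolic aspartate transaminase, one of 1.5 (edgeR adjusted p = 8.75e-06). Of 7 regulators, 3 were lower in sWAT and 2 in BAT. *Klf15*, a transcription factor known for control of amino acid breakdown, was lower in both, from 106 ± 19.4 to 44.5 ± 10.7 CPM in sWAT (SD, n = 4 each, log2 fold change -1.26, edgeR adjusted p = 0.00786) and from 74.7 ± 15.3 to 20.4 ± 11.3 CPM in BAT (SD, n = 5 each, log2 fold change -1.88, edgeR adjusted p = 0.00301). The next were *Srebf1* in sWAT (-1.39, edgeR adjusted p = 0.0314) and *Mlxipl* in BAT (-0.39, edgeR adjusted p = 0.006).

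Reads of some of these genes may be shared. *Bckdha*, *Bckdhb*, *Mccc1*, *Acadsb*, *Echs1*, *Hibadh*, *Aldh6a1* and *Pcca* overlap in position with other genes that hold at least 2% as many reads, and whether strand was used in counting is not given in the sources used here.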

How the data were processed

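Ribosomal RNA was depleted from total RNA of adipose tissue, and paired reads were aligned by the authors with STAR 2.7.9a to GRCm38 and counted per gene. For each library the authors deposited raw counts of 55487 genes, with CPM, FPKM and TPM made from them, which were not used further. The largest difference between deposited CPM and count over total was 4.37e-10. Gene symbols were matched by Ensembl ID for 55141 genes, and 54907 genes had the same coordinates in GENCODE M21. The genotypes were compared within each tissue from counts with edgeR 4.0.16 in R 4.3.3 (TMM factors, filterByExpr with a minimum count of 10 and total of 15, robust quasi-likelihood fits, Benjamini-Hochberg adjustment over all genes tested), and between tissues by the interaction over 18 libraries. The fits were tested on simulated data, with 200 genes changed by 2 on the log2 scale. Of these, 70% were recovered in sWAT, 91% in BAT and 65.5% in the interaction. Of the calls made, 3.45%, 4.71% and 2.24% were false. The breakdown genes changed by less than this, and recovery at their size was not tested. A gene not called in sWAT or by the interaction may therefore still differ. Alternatives were RLE factors, library size alone, no filter, a cutoff of 1 CPM exceeded by every library of a group except 1, DESeq2 1.42.0, limma 3.58.1 voom with quality weights, no ribosomal RNA genes, a replicate block, all 4 groups in one fit and each library left out. Leaving out the libraries highest in T and B cell or in muscle markers, and step medians without shared genes, were added after the data were seen. The members, lists and tests were chosen with earlier results of these data known. The genes of entry and BCKDH, the called gene of largest change in each later step, those called higher or in opposite directions, and the 2 called genes of smallest adjusted p of each neighbouring list were named with values, except an item that is not reported here. Levels between genes are per kilobase of deposited gene length. Step levels per library used log2(CPM + 0.5). The SE of a log2 fold change was derived as its absolute value over the square root of edgeR's F statistic. No pair of libraries agreed within sampling noise.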

Additional observations from a re-analysis of the deposited data

Results flagged for a closer look

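Over 128 pairs of a gene and a group, 18 had 1 library far from the others by Dixon's test at the 95% level, where chance flags about 6.4. Of these, 14 were Csn8AKO replicate 2 of BAT, above the other Csn8AKO libraries: *Bckdha* at 163 CPM, *Bckdhb* at 101, *Dbt* at 142, *Dld* at 702, *Ivd* at 234, *Acadsb* at 132, *Acat1* at 719, *Echs1* at 532, *Hibadh* at 265, *Aldh6a1* at 263, *Pcca* at 281, *Pccb* at 384, *Mcee* at 60.7 and *Mut* at 182 CPM. The same library held 15.1% of its reads in ribosomal RNA genes, against 1.06% to 4.10% in the other Csn8AKO libraries of BAT. The part of this in its levels was not tested. In sWAT, *Oxct1* stood low in Csn8AKO replicate 2, at 191 CPM, and *Mmab* stood high in Ctrl replicate 2, at 34.6 CPM. In Ctrl BAT, *Hsd17b10* stood high in replicate 4, at 142 CPM, and *Abat* stood low in replicate 5, at 1.01 CPM.

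The change of *Abat* differed between BAT and sWAT by 1.90 on the log2 scale (edgeR adjusted p = 0.00298), lower in each of the 4 Csn8AKO libraries of sWAT and higher in each of the 5 of BAT than in all Ctrl libraries of that tissue. It was called under all 26 alternatives run for the interaction, the tissues also differing in age.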

How the results depend on the processing

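The number of genes lower in sWAT, 12, was 6 with library size alone, 19 with DESeq2 and 20 with limma voom. It was 19 with all 4 groups in one fit and 2 to 16 with 1 library left out. Without the libraries highest in T and B cell markers it was 19, and 2 without those highest in muscle markers. The number lower over all genes moved too, from 566 to 328 with library size alone, 1034 with DESeq2 and 1078 with limma voom. It was 1419 with all 4 groups in one fit and 179 to 673 with 1 sWAT library left out. In BAT it was 3536, and 2752 to 4106 with 1 library left out. The 1 gene higher in sWAT, *Oxct1*, became 0 with RLE factors, library size alone and without the muscle-marker libraries, and 0 to 1 with 1 library left out. The 23 lower genes of BAT were 17 to 28 with 1 library left out and 14 without the muscle-marker libraries, where the 2 higher became 1, as in the range of 1 to 2 with 1 library left out. Same-numbered libraries did not deviate together (correlations -0.43 to 0.25 in sWAT and -0.14 to 0.17 in BAT). Ctrl mice were littermates, but whether same-numbered mice shared a litter is not given, and so few pairs cannot settle it. The replicate block was therefore run as an alternative only. With it, the calls were 2 lower and 0 higher in sWAT and 1 higher in BAT. The interaction count, 1, was 2 with DESeq2 (*Mccc1* added), 3 with limma voom (*Auh* and *Oxct1* added) and 1 to 4 with 1 library left out, where *Ppm1k*, *Auh* and *Oxct1* were added without Csn8AKO replicate 2 of BAT.

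The entry median of -0.057 in BAT turned to 0.067 with library size alone, 0.033 without the muscle-marker libraries and 0.023 without Ctrl replicate 3 (range -0.11 to 0.023 with 1 library left out), and that of sWAT went from -0.69 to -0.87 without the muscle-marker libraries. Library size alone moved the median of all genes to 0.14 in BAT and 0.21 in the interaction. The causes were not tested. A count was taken as the same within 1.5-fold of the main one. A median was taken as the same if it moved by less than the larger SD of its step levels within a genotype. That SD takes in Csn8AKO replicate 2, so sizeable shifts can pass as the same. The leucine median of BAT, for example, went from -0.49 to -0.66 without that library and passed. Over all such counts and medians, 352 values stayed the same by these measures, 36 moved and 3 turned. Depth limits *Bcat1* and *Abat* most, with as few as 54 and 56 reads in a library.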
